A study of Homo sapiens with 8 samples.

Results

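The aminoacyl-tRNA synthetases, the enzymes that load each amino acid onto its transfer RNA (tRNA), were followed by RNA-seq in human T-cell acute lymphoblastic leukemia (T-ALL) cells exposed to PKF118-310. The members were chosen by symbol and comprised 36 of the 57189 genes in the count files. Of these, 20 encode cytosolic or dual enzymes and 16 encode mitochondrial enzymes, whose symbols end in 2. All 36 passed the filter on low counts.

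The groups were CUTLL1 (spelled CUTTL1 in the labels) with PKF118-310 and TIB153 with PKF118-310, each set against control cells of the same line. Both are established human T-ALL lines, and the labels describe the cells as not transfected. PKF118-310 is a small-molecule inhibitor of the β-catenin/TCF complex, and per the study's methods the exposure was 1 µM for 24 h. Per the labels, each of the 4 groups held 1 library, which was sequenced in 2 lanes, so ratios within a line carry no replicate spread.

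The libraries held between 7609427 and 8140391 counts in total, and a gene with 3 counts lay at 0.369 to 0.394 CPM, the unit of scaled counts used throughout. The lanes of a library differed by about as much as sampling noise gives, at a chi-square per degree of freedom of 0.99 to 1.02 over genes (p from 0.0845 to 0.786), and were summed. The 10 T-cell markers examined, among them CD3D, CD2 and LCK, were all detected and summed to 2920 CPM in CUTLL1 with PKF118-310 against 3590 CPM in its control, and to 2690 CPM in TIB153 with PKF118-310 against 2760 CPM in its control. The B-cell markers MS4A1 and CD22 were listed at 0, and the 4 B-cell markers together reached 13.7 and 10.8 CPM in treated and control CUTLL1 and 104 and 79 CPM in treated and control TIB153. The part of these marker levels in the results was not tested.

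Each synthetase recognises its own amino acid and the matching tRNAs and joins them at the cost of ATP, and the charged tRNA is then delivered to the ribosome. Human cells mostly use separate nuclear genes for the cytosolic and the mitochondrial enzyme, while GARS and KARS each encode both forms and EPRS encodes a single protein that charges glutamate and proline. When amino acids run short, uncharged tRNA activates the kinase GCN2 (gene EIF2AK4), which phosphorylates the initiation factor eIF2α and thereby favours translation of the transcription factor ATF4. ATF4 is known to induce many of the cytosolic synthetase genes in human and mouse cells, together with amino acid transporters and enzymes of amino acid synthesis.

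In control cells the cytosolic synthetases were the more abundant set. Levels of different genes were compared as CPM per kb of exonic length. That length spans all annotated exons of a gene, which need not match the mRNA made in these cells, so the comparison is rough. On this scale the median of the 20 cytosolic genes was 47.4 in CUTLL1 control cells and 40.0 in TIB153 control cells. The median of the 16 mitochondrial genes was 11 in CUTLL1 control cells and 9.80 in TIB153 control cells. FARSA, which encodes the α subunit of phenylalanyl-tRNA synthetase, had the highest level in both, at 124 CPM per kb in CUTLL1 control cells and 131 CPM per kb in TIB153 control cells. SARS2, the mitochondrial seryl-tRNA synthetase, had the lowest, at 1.92 and 1.65 CPM per kb. SARS2 shared 46.2% of its exonic bases with the gene AC011455.2 on the same strand, so its counts are uncertain. The 14 annotated pseudogenes of the members were listed at 0 in every library. IARS2, the mitochondrial isoleucyl-tRNA synthetase, stood apart from the other mitochondrial members with 47.8 CPM per kb in CUTLL1 control cells and 52.2 CPM per kb in TIB153 control cells. Of the 36 genes, AARS, the alanyl-tRNA synthetase, differed most between the control cells of the lines, being 2.12-fold higher in CUTLL1 than in TIB153 (log2 ratio 1.09, 95% counting interval 0.99 to 1.18).

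**Figure D1:**
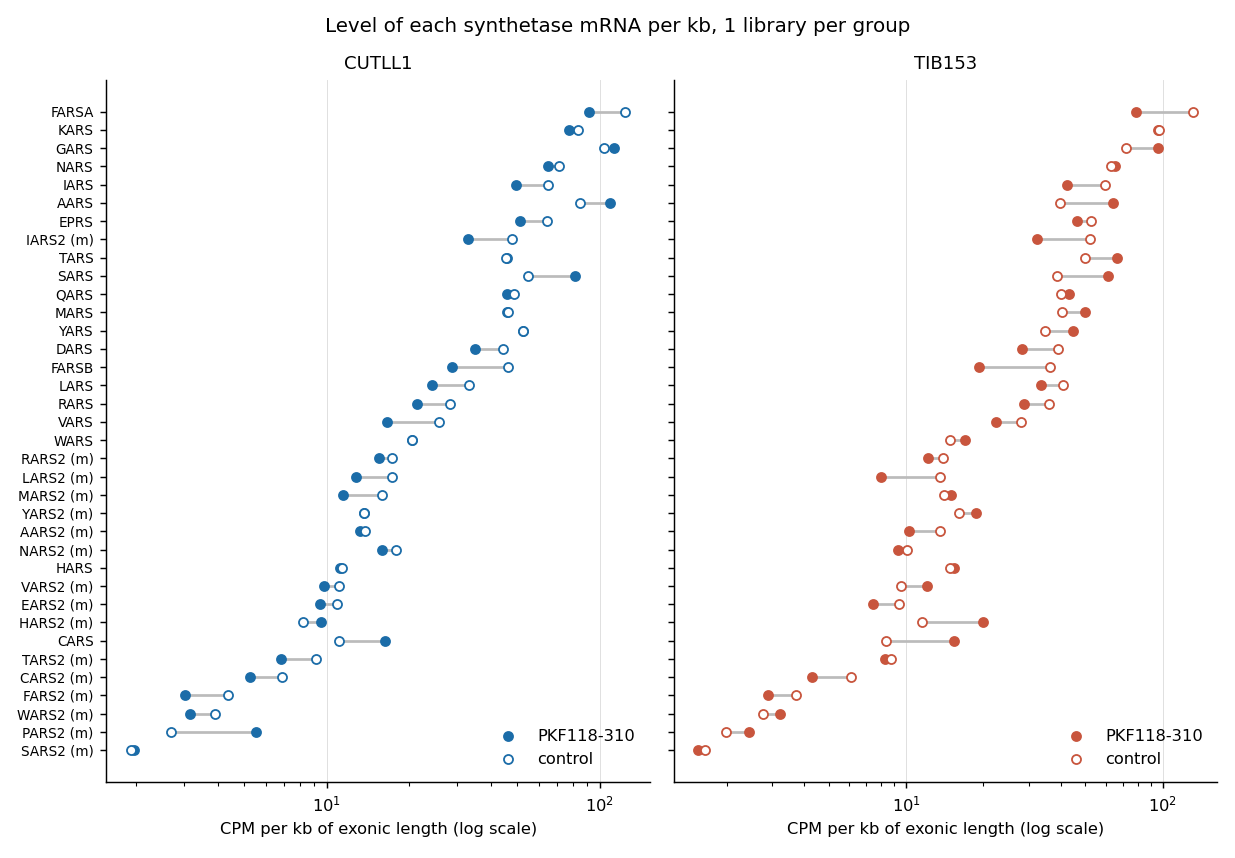
Level of the 36 synthetase mRNAs in CPM per kb of exonic length on a log axis, in CUTLL1 (left) and TIB153 (right). Filled points are cells with PKF118-310, open points are control cells, each from 1 library, the grey bar joins them, and (m) marks mitochondrial enzymes. FARSA tops the control cells of both lines and SARS2 lies lowest.

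After PKF118-310 the set did not move as a block. Across both lines, 10 of the 36 members passed edgeR's quasi-likelihood test at a Benjamini-Hochberg adjusted p under 0.05 over 13280 genes (n = 2 lines, 1 treated and 1 control library each). CARS, SARS and AARS rose, which is 3 of 36 members against 6.11% of all genes tested. FARSB, FARSA, VARS, IARS, DARS, IARS2 and LARS2 fell, which is 7 of 36 against 6.78% of all genes. The other 26 did not pass. In bulk RNA, a change in the share of cells that express a gene and a change in RNA per cell cannot be told apart.

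Most of the spread behind these p-values is borrowed from other genes, since only 1 residual degree of freedom stood beside a median of 13 prior ones. With DESeq2's Wald test, 5 of the 10 passed (CARS, SARS, FARSA, FARSB and IARS2), and over all genes 194 were higher and 249 lower. With the cell line left out of the edgeR model none of the 36 passed, but neither did any of the 13280 genes tested. In that fit 4 of the 36 had an unadjusted p under 0.05. Scaling by total counts in place of TMM left 3 members higher and 4 lower, and changed the split over all genes to 827 higher and 552 lower from 812 higher and 900 lower.

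Within a line, a member counted as higher or lower if treated and control differed by at least 1.5-fold and the 95% counting interval excluded no change. PARS2 alone was higher in CUTLL1, which is 1 of 36 members against 9.49% of all genes, and FARSB and VARS were lower, which is 2 of 36 against 6.39%. In TIB153, CARS, HARS2, AARS and SARS were higher, which is 4 of 36 against 11.4% of all genes, and FARSB, LARS2, FARSA and IARS2 were lower, which is 4 of 36 against 9.81%. Without the fold limit, 4 members had counting intervals above no change in both lines, against 13.1% of all genes, and 12 had intervals below it in both lines, against 15.7%. Those 4 were CARS, SARS, AARS and GARS. Counting intervals narrow as reads increase, and the shares over all genes were not matched for read number.

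**Figure D2:**
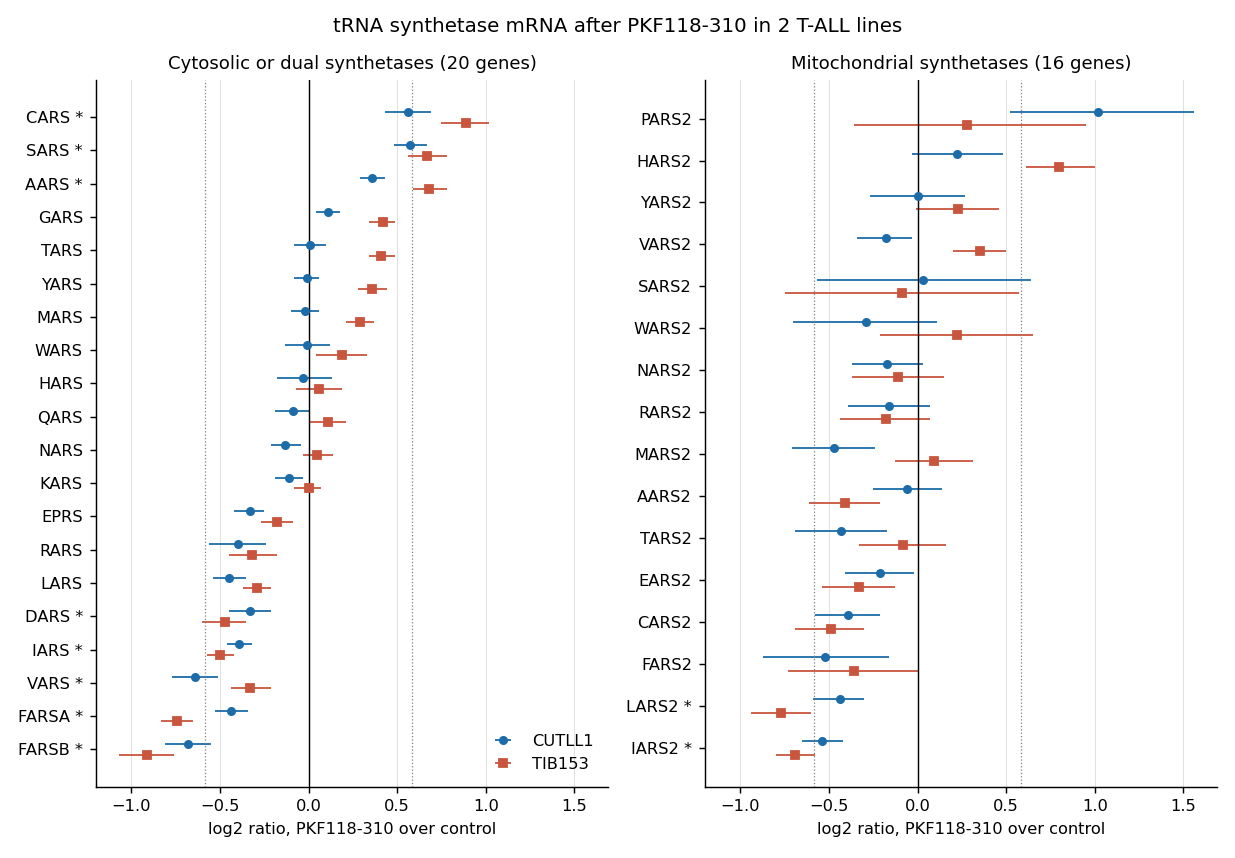
Log2 ratio of PKF118-310 over control for the 20 cytosolic or dual (left) and 16 mitochondrial (right) synthetases, ordered by the mean of both lines. Points are single libraries against single libraries (circles CUTLL1, squares TIB153), bars are 95% counting intervals, dotted lines mark 1.5-fold, and stars mark the 10 members with an adjusted p under 0.05 across both lines. CARS, SARS and AARS lie right of 0 and FARSB, FARSA and IARS2 left of 0 in both lines.

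The 3 synthetases that rose charge cysteine, serine and alanine. CARS (ENSG00000110619.17), the cysteinyl-tRNA synthetase, had 1321 reads in CUTLL1 with PKF118-310 against 827 reads in CUTLL1 control, and 1302 reads in TIB153 with PKF118-310 against 646 reads in TIB153 control. Both treated libraries lay above both control libraries. Its log2 ratio was 0.56 (95% counting interval 0.43 to 0.69) in CUTLL1 and 0.89 (0.75 to 1.02) in TIB153, and its edgeR log2 change across the lines was 0.72 ± 0.13 (SE, adjusted p = 0.0046).

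SARS (ENSG00000031698.12), the seryl-tRNA synthetase that also supplies the serine-charged tRNA from which selenocysteine is made, had 2508 reads in treated against 1555 in control CUTLL1. In TIB153 it had 1979 reads in treated against 1141 in control cells. Again the treated libraries were both above the controls. The log2 ratios were 0.57 (0.48 to 0.67) and 0.67 (0.56 to 0.78) in CUTLL1 and TIB153, and the edgeR log2 change was 0.62 ± 0.12 (SE, adjusted p = 0.00718).

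AARS (ENSG00000090861.15) had 3926 reads in treated against 2824 in control CUTLL1, and 2420 reads in treated against 1381 in control TIB153. The lines differed so much at baseline that treated TIB153 stayed below control CUTLL1. Its log2 ratio was 0.36 (0.29 to 0.43) in CUTLL1 and 0.68 (0.59 to 0.78) in TIB153, and the edgeR log2 change was 0.52 ± 0.13 (SE, adjusted p = 0.0206). DESeq2's adjusted p for AARS was 0.0523.

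The promoters of these genes were read for the C/EBP-ATF response element, the site through which ATF4 is known to act. RefSeq promoter windows of 300 bases (250 before and 50 from the annotated start on, GRCh38.p14) were matched for 30 of the 36 members, 14 of them through a newer symbol. The core TGATGNAA was searched on both strands. It was found in 8 of the 30 members, or 26.7%, against 4.46% of all 27305 genes with a window. By set, 7 of 16 cytosolic members held it (43.8%) and 1 of 14 mitochondrial members (7.14%). The 8 stretches are shown because they place a match to the same core in genes that rose, did not pass and fell. Each is printed in the direction of the gene, with the matched core or its reverse complement in capitals, from 90 bases before the start to 30 bases from the start on, or for AARS and YARS2 from 210 to 91 bases before it.
AARS: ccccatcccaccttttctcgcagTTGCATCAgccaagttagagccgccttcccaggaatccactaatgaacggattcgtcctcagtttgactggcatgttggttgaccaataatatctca
CARS: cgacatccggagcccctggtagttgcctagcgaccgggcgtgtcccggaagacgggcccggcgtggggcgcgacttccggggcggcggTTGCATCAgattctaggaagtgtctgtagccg
GARS: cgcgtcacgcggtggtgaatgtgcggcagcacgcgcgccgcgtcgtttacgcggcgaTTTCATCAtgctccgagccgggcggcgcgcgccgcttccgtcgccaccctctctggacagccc
TARS: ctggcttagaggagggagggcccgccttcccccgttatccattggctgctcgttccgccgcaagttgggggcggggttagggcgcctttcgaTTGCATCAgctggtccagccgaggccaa
MARS: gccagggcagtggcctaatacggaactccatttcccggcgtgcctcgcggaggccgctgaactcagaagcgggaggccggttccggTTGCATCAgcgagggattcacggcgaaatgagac
NARS: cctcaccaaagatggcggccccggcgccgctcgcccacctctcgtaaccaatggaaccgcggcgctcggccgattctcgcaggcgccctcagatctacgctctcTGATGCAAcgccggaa
IARS: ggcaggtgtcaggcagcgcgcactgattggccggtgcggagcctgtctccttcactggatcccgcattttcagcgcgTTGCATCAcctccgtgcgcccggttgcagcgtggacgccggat
YARS2: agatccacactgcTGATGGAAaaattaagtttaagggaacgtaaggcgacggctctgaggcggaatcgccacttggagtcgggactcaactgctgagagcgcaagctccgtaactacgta

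The AARS stretch lies on the minus strand of chr16:70289597-70289716, CARS on the minus strand of chr11:3057394-3057513, GARS on the plus strand of chr7:30594788-30594907 and TARS on the plus strand of chr5:33440875-33440994. MARS lies on the plus strand of chr12:57487978-57488097, NARS on the minus strand of chr18:57621807-57621926, IARS on the minus strand of chr9:92293668-92293787 and YARS2 on the minus strand of chr12:32755988-32756107. AARS, CARS, IARS, MARS and TARS carry the same matched octamer, TTGCATCA, and NARS carries its reverse complement. The match begins 187 bases before the start in AARS, 33 before it in GARS, 13 before it in IARS, 4 before it in MARS and 2 before it in CARS.

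A match was held by 2 of the 3 members with a window that rose. It was held by 1 of the 5 that fell and 5 of the 22 that did not pass. Whether a match goes with the response was not tested. Of the members with a match, AARS and CARS rose, IARS fell, and GARS, TARS, MARS, NARS and YARS2 did not pass the test. SARS, which rose, held no match in either of its windows. The 7 cytosolic members with a match had a median log2 ratio of 0.01 in CUTLL1 and 0.41 in TIB153, and the 9 cytosolic members with a window and no match had medians of −0.11 and 0.00. The ranges overlapped, from −0.39 to 0.56 with a match and from −0.68 to 0.57 without one in CUTLL1, and from −0.50 to 0.89 with a match and from −0.91 to 0.67 without one in TIB153. The TCF and LEF core CTTTGA, searched on both strands, was found in 1 of the 30 members (GARS, 3.33%) against 15.5% of all genes with a window. A missing match says only that these letters are not in this window.

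**Figure D3:**
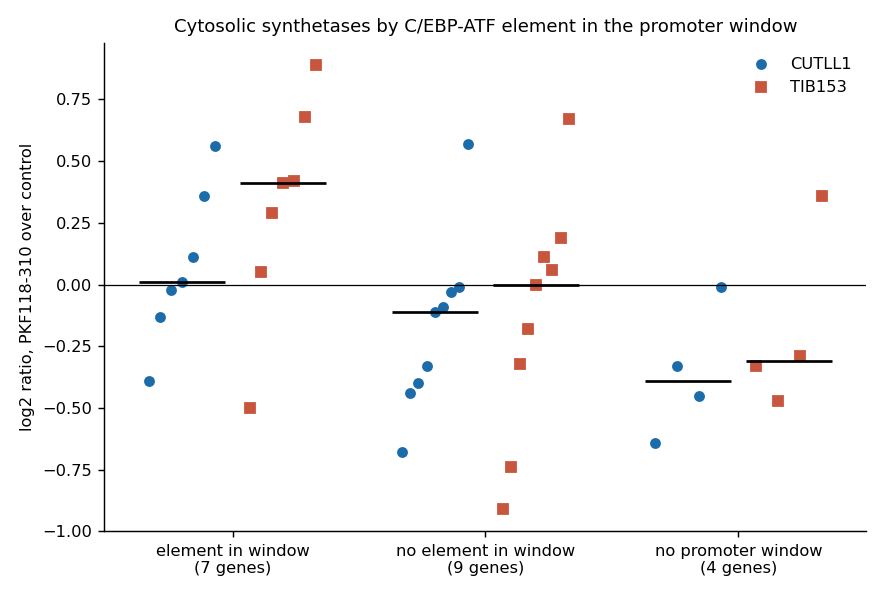
Log2 ratio of PKF118-310 over control (y axis) for the 20 cytosolic synthetases, grouped by whether the C/EBP-ATF element core is in the promoter window. Each point is a gene in a line (circles CUTLL1, squares TIB153) and black lines are medians. In TIB153 the median is 0.41 with the element and 0.00 without it, and the ranges overlap.

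Among the synthetases that fell, both subunits of the cytosolic phenylalanyl enzyme moved together. FARSB (ENSG00000116120.9), the β subunit, had 779 reads in treated against 1154 in control CUTLL1, and 545 reads in treated against 942 in control TIB153. Both treated libraries were below both controls. FARSB had the lowest log2 ratio of the 36 members in each line, −0.68 (−0.81 to −0.55) in CUTLL1 and −0.91 (−1.07 to −0.76) in TIB153, and an edgeR log2 change of −0.80 ± 0.13 (SE, adjusted p = 0.00269).

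FARSA (ENSG00000179115.10), the catalytic α subunit, had 1790 reads in treated against 2235 in control CUTLL1, and 1609 reads in treated against 2460 in control TIB153. The treated libraries were again below the controls. The log2 ratios were −0.44 (−0.53 to −0.34) in CUTLL1 and −0.74 (−0.83 to −0.65) in TIB153, and the edgeR log2 change was −0.59 ± 0.13 (SE, adjusted p = 0.0119).

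VARS (ENSG00000204394.12), the valyl-tRNA synthetase, had 812 reads in treated against 1166 in control CUTLL1, and 1140 reads in treated against 1310 in control TIB153. Its decrease was larger in CUTLL1, with a log2 ratio of −0.64 (−0.77 to −0.51) there and −0.33 (−0.44 to −0.21) in TIB153. The difference of these ratios, CUTLL1 minus TIB153, was −0.31 with a counting interval of −0.48 to −0.14. Across the lines the edgeR log2 change was −0.48 ± 0.13 (SE, adjusted p = 0.0261). This call was lost with DESeq2, where the adjusted p was 0.15, with total-count scaling and with lane 2 alone.

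IARS (ENSG00000196305.17), the isoleucyl-tRNA synthetase, had 2928 reads in treated against 3536 in control CUTLL1, and 2632 reads in treated against 3402 in control TIB153. Its log2 ratios of −0.39 (−0.46 to −0.32) and −0.50 (−0.57 to −0.42) were close in the lines, and the edgeR log2 change was −0.44 ± 0.12 (SE, adjusted p = 0.0327), a call lost with DESeq2 (adjusted p = 0.0891), with total-count scaling and with lane 2 alone. DARS (ENSG00000115866.10), the aspartyl-tRNA synthetase, had 1129 reads in treated against 1311 in control CUTLL1, and 950 reads in treated against 1210 in control TIB153. The treated library was the lower in each line, with log2 ratios of −0.33 (−0.45 to −0.21) and −0.47 (−0.60 to −0.35). The edgeR log2 change of DARS was −0.40 ± 0.12 (SE, adjusted p = 0.0437), which is nearest to the threshold of the 10, and it was lost with DESeq2's size factors, with total-count scaling and with either lane alone.

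The cytosolic genes that are commonly listed as induced by ATF4 and the remaining cytosolic genes are set side by side here by their counts. Both lists were chosen with earlier results of these data known, so the contrast only describes these data. Of the 12 listed genes, 3 rose (AARS, CARS and SARS), 1 fell (IARS) and 8 did not pass, and their median edgeR log2 change was 0.16 against 0.00 over all genes tested. Of all genes tested, 6.11% rose and 6.78% fell. In TIB153 the median log2 ratio of the 12 was 0.32, and in CUTLL1 it was −0.01. GARS, the glycyl enzyme, had the highest CPM per kb of exonic length of the 12 in control cells of both lines. It had 3762 reads in treated against 3213 in control CUTLL1, and 3346 reads in treated against 2298 in control TIB153. Its log2 ratio was 0.11 (0.04 to 0.18) in CUTLL1 and 0.42 (0.34 to 0.49) in TIB153, with an edgeR adjusted p of 0.196.

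TARS, YARS, MARS and WARS, the threonyl, tyrosyl, methionyl and tryptophanyl enzymes, had log2 ratios between −0.02 and 0.01 in CUTLL1 and between 0.19 and 0.41 in TIB153, and none of the 4 passed the test. MARS shares 12.4% of its exonic bases with genes on the opposite strand, DDIT3 among them, and no source used here gives the strand setting of the counting. NARS, the asparaginyl enzyme, had log2 ratios of −0.13 and 0.05. EPRS and LARS, the glutamyl-prolyl and leucyl enzymes, were below no change in both lines, at −0.33 and −0.18 for EPRS and at −0.45 and −0.29 for LARS, and their adjusted p-values were 0.187 and 0.0661.

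Of the 8 cytosolic genes outside that list, none rose and 4 fell (DARS, FARSA, FARSB and VARS), against 6.11% and 6.78% of all genes tested, and their median edgeR log2 change was −0.38. RARS, the arginyl enzyme, had log2 ratios of −0.40 and −0.32 in CUTLL1 and TIB153 with an adjusted p of 0.082. KARS, QARS and HARS, the lysyl, glutaminyl and histidyl enzymes, had log2 ratios between −0.11 and 0.11 in both lines.

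By catalytic fold, the 9 class I and 10 class II cytosolic genes gave similar medians. The class I median log2 ratio was −0.09 in CUTLL1 and 0.11 in TIB153, with 1 gene higher and 2 lower across the lines. The class II median was −0.07 in CUTLL1 and 0.06 in TIB153, with 2 higher and 3 lower. Over all genes tested, 6.11% rose and 6.78% fell.

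The enzymes of the multi-tRNA synthetase complex, a cytosolic particle in which several synthetases are held by scaffold proteins, had median log2 ratios of −0.33 in CUTLL1 and −0.24 in TIB153. Of the 8 enzymes, none rose, 2 passed as lower (DARS and IARS) and 6 did not pass, against 6.78% of all genes tested that fell. No enzyme of the complex passed with DESeq2, with total counts only or with lane 2 alone. AARS, CARS and SARS, the members that rose, are not in this complex. Of the 3 scaffold genes, EEF1E1 and AIMP2 passed as lower in the edgeR test, narrowly. EEF1E1, which anchors MARS in the complex, had 80 reads in treated against 125 in control CUTLL1 and 60 in treated against 109 in control TIB153 (edgeR log2 change −0.87 ± 0.26 SE, adjusted p = 0.0426). AIMP2 had 523 reads in treated against 580 in control CUTLL1 and 358 in treated against 620 in control TIB153 (edgeR log2 change −0.59 ± 0.17 SE, adjusted p = 0.0408). AIMP2 shares 28.9% of its exonic bases with EIF2AK1 on the opposite strand. With DESeq2 the adjusted p was 0.326 for EEF1E1 and 0.18 for AIMP2. Neither gene passed with total counts only or with lane 2 alone, EEF1E1 did not pass with lane 1 alone (adjusted p = 0.0996), and AIMP2 did not pass with DESeq2's size factors in edgeR (adjusted p = 0.0503). AIMP1 did not pass, at log2 ratios of −0.13 and −0.22.

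Of the 16 mitochondrial synthetases, 2 fell, none rose and 14 did not pass the test across lines, against 6.78% of all genes tested that fell and 6.11% that rose. An unadjusted p under 0.05 was given to 4 of the 16 and to 28.7% of all genes. IARS2 (ENSG00000067704.9) had 1101 reads in treated against 1475 in control CUTLL1, and 1130 reads in treated against 1675 in control TIB153. Both treated libraries were below both controls, with log2 ratios of −0.54 (−0.65 to −0.42) and −0.69 (−0.80 to −0.58). Its edgeR log2 change was −0.62 ± 0.12 (SE, adjusted p = 0.00753).

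LARS2 (ENSG00000011376.10), the mitochondrial leucyl-tRNA synthetase, had 701 reads in treated against 881 in control CUTLL1, and 457 reads in treated against 714 in control TIB153. Its log2 ratio was −0.44 (−0.59 to −0.30) in CUTLL1 and −0.77 (−0.94 to −0.60) in TIB153. The edgeR log2 change was −0.60 ± 0.14 (SE, adjusted p = 0.0139), while DESeq2's adjusted p was 0.0906.

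CARS2 and FARS2, the mitochondrial cysteinyl and phenylalanyl enzymes, did not pass the test. CARS2 had 439 reads in treated against 533 in control CUTLL1, and 379 in treated against 489 in control TIB153, with log2 ratios of −0.39 and −0.49 and an adjusted p of 0.0625. FARS2 had 118 reads in treated against 156 in control CUTLL1, and 117 in treated against 138 in control TIB153, with log2 ratios of −0.52 and −0.36 and an adjusted p of 0.224.

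PARS2 (ENSG00000162396.5), the mitochondrial prolyl-tRNA synthetase, gave the highest ratio of the 36 in CUTLL1 from few reads. It had 104 reads in treated against 47 in control CUTLL1, and 48 in treated against 36 in control TIB153. The log2 ratio was 1.02 (0.52 to 1.56) in CUTLL1 and 0.28 (−0.36 to 0.95) in TIB153. Across the lines PARS2 did not pass (edgeR log2 change 0.69 ± 0.32 SE, adjusted p = 0.179).

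HARS and HARS2, the cytosolic and mitochondrial histidyl-tRNA synthetases, lie head to head on chromosome 5, HARS at 140673904-140691862 on the minus strand and HARS2 at 140691426-140699318 on the plus strand (hg38). HARS2 had 286 reads in treated against 226 in control CUTLL1, and 629 reads in treated against 330 in control TIB153, where treated cells were 1.75-fold higher. HARS had 703 reads in treated against 662 in control CUTLL1, and 1016 in treated against 892 in control TIB153. In TIB153 the log2 ratio was 0.80 (0.61 to 1) for HARS2 and 0.06 (−0.07 to 0.19) for HARS. In CUTLL1 the lanes gave HARS2 log2 ratios of −0.08 (lane 1) and 0.53 (lane 2). HARS2's edgeR log2 change was 0.53 ± 0.18 (SE, adjusted p = 0.0689). These genes overlap on opposite strands over 11.7% of HARS2's exonic bases, and reads in the overlap cannot be told apart without a known strand setting.

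The other 10 mitochondrial members did not pass. EARS2 (glutamyl), AARS2 (alanyl), NARS2 (asparaginyl) and RARS2 (arginyl) had log2 ratios at or below −0.06 in both lines, between −0.41 and −0.06. MARS2 (methionyl), TARS2 (threonyl) and WARS2 (tryptophanyl) had log2 ratios of −0.47, −0.43 and −0.29 in CUTLL1 and of 0.09, −0.08 and 0.22 in TIB153. YARS2 (tyrosyl) had log2 ratios of 0.00 and 0.23, and SARS2 had 0.03 and −0.09. VARS2 (valyl) had 665 reads in treated against 698 in control CUTLL1, and 862 reads in treated against 621 in control TIB153. Its counting interval lay below no change in CUTLL1 (log2 ratio −0.18, −0.34 to −0.03) and above it in TIB153 (0.35, 0.20 to 0.50). VARS2 shares 22% of its exonic bases with GTF2H4 on the same strand.

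The cytosolic and mitochondrial sets were then compared as sets. The median log2 ratio of the cytosolic set was −0.10 in CUTLL1 and 0.06 in TIB153, and that of the mitochondrial set was −0.20 in CUTLL1 and −0.10 in TIB153, beside medians of 0.00 and −0.01 over all genes. The medians differed by 0.10 in CUTLL1 and 0.16 in TIB153, cytosolic minus mitochondrial. With total counts as the only scaling, the cytosolic medians were −0.05 in CUTLL1 and 0.12 in TIB153 and the mitochondrial medians −0.15 and −0.04. Single genes ranged from −0.68 to 0.57 in the cytosolic and from −0.54 to 1.02 in the mitochondrial set in CUTLL1, and from −0.91 to 0.89 and from −0.77 to 0.80 in TIB153. Summed over genes, the mitochondrial set came to 737 CPM in treated against 901 CPM in control CUTLL1 and to 715 CPM in treated against 828 CPM in control TIB153. The summed cytosolic set came to 4933 CPM in treated against 5213 CPM in control CUTLL1 and to 4704 CPM in treated against 4567 CPM in control TIB153. With 1 library per group these sums have no replicate check. Of the mitochondrial sum, IARS2 came to 137 CPM in treated against 199 CPM in control CUTLL1 and to 135 against 218 CPM in TIB153. LARS2 came to 87.3 against 119 CPM in CUTLL1 and to 54.4 against 92.7 CPM in TIB153. In TIB153 these 2 genes lost more CPM than the summed set, so the sum does not describe a decrease shared by all its members.

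Pairs of enzymes for the same amino acid gave a closer comparison, 17 pairs over 16 amino acids. The cytosolic gene had the higher log2 ratio beyond counting error in both lines in 4 pairs, which were those for cysteine, alanine, threonine and isoleucine. With lane 1 alone the same 4 pairs lay above, but with lane 2 alone, only the cysteine pair did. For cysteine, the ratios of CARS and CARS2 lay on opposite sides of no change in both lines, and CARS minus CARS2 was 0.95 (0.73 to 1.18) in CUTLL1 and 1.38 (1.14 to 1.61) in TIB153. For alanine, AARS minus AARS2 was 0.42 (0.22 to 0.62) in CUTLL1 and 1.09 (0.87 to 1.31) in TIB153. The CUTLL1 value depended on the lane, at 0.59 with lane 1 alone and 0.23 with lane 2 alone, and AARS2 itself was at −0.24 and 0.15. In the isoleucine pair both genes fell, and IARS minus IARS2 was only 0.15 (0.02 to 0.28) and 0.20 (0.07 to 0.33).

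Valine was the single pair with the cytosolic gene lower beyond counting error in both lines. There VARS minus VARS2 was −0.45 (−0.65 to −0.25) in CUTLL1 and −0.67 (−0.86 to −0.49) in TIB153. For leucine the enzymes differed in TIB153 (LARS minus LARS2 0.48, 0.29 to 0.66), whereas in CUTLL1 the difference had an interval of −0.17 to 0.17.

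**Figure D4:**
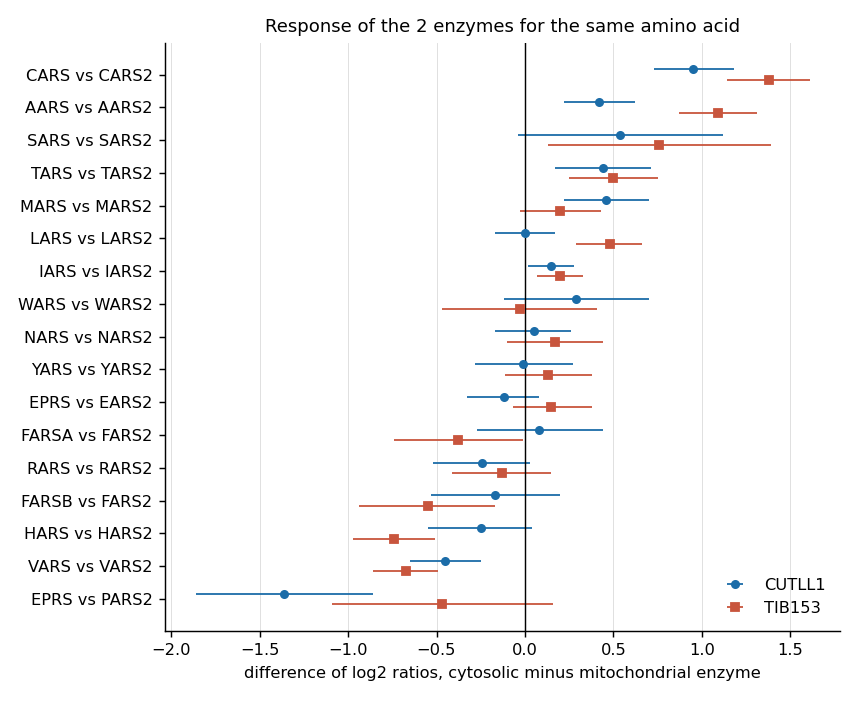
Difference of the log2 ratio of PKF118-310 over control between the cytosolic and the mitochondrial enzyme for the same amino acid (x axis, cytosolic minus mitochondrial), for 17 pairs. Points are the values in CUTLL1 (circles) and TIB153 (squares) and bars are approximate 95% counting intervals. CARS against CARS2 and AARS against AARS2 lie right of 0 in both lines, and VARS against VARS2 lies left of 0 in both.

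The log2 ratios were then compared between the lines. Of the 20 cytosolic genes, 16 had a lower log2 ratio in CUTLL1 than in TIB153, 12 of them beyond counting error, against 14.1% of all genes tested. Only FARSA, FARSB and IARS had a higher (less negative) log2 ratio in CUTLL1 beyond counting error, which is 3 of 20 against 19.1% of all genes. TARS showed the largest such difference of the cytosolic genes, with a log2 ratio of 0.01 in CUTLL1 and 0.41 in TIB153, a difference of −0.40 (−0.52 to −0.28). In the mitochondrial set HARS2, MARS2 and VARS2 were lower in CUTLL1 beyond counting error, and AARS2 and LARS2 were higher. These intervals cover counting error only, and with 1 library per group the difference between lines has no replicate test. Intervals also narrow as reads increase, and the shares over all genes were not matched for read number.

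Genes listed as sensing uncharged tRNA or acting below it were examined beside the synthetases. Charging of tRNA was not measured, and what moved these genes was not tested. This list was also chosen with earlier results of these data known, so its counts only describe these data. Of 13 such genes, 8 rose, 1 passed as lower and 4 did not pass across the lines, against 6.11% of all genes that rose and 6.78% that fell, and their median edgeR log2 change was 1.06. With DESeq2, 6 were higher and 0 lower, against 194 higher and 249 lower of the 13280 genes tested. PPP1R15A, which encodes the subunit that directs dephosphorylation of eIF2α, had 2392 reads in treated against 334 in control CUTLL1, and 1035 in treated against 259 in control TIB153 (edgeR log2 change 2.31 ± 0.20 SE, adjusted p = 0.000382). DDIT3, which encodes the transcription factor CHOP, had 335 reads in treated against 86 in control CUTLL1, and 266 in treated against 44 in control TIB153 (edgeR log2 change 2.13 ± 0.23 SE, adjusted p = 0.000173). ATF3 had 479 reads in treated against 104 in control CUTLL1, and 333 in treated against 74 in control TIB153 (edgeR log2 change 2.07 ± 0.19 SE, adjusted p = 6.1e-05). All 3 are separated by a wide margin in each line.

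ATF4 itself had 5409 reads in treated against 4317 in control CUTLL1, and 7294 in treated against 4674 in control TIB153. Its log2 ratio of 0.21 (0.15 to 0.27) in CUTLL1 and 0.52 (0.46 to 0.57) in TIB153 gave an edgeR log2 change of 0.36 ± 0.13 (SE, adjusted p = 0.0889), so ATF4 mRNA did not pass. ATF4 is controlled largely by translation, which these data do not measure. EIF2AK4, the sensor kinase, passed as lower, with 900 reads in treated against 1026 in control CUTLL1 and 490 in treated against 777 in control TIB153 (edgeR log2 change −0.54 ± 0.14 SE, adjusted p = 0.0277). It did not pass with DESeq2 (adjusted p = 0.141), with total counts only (adjusted p = 0.0578) or with lane 1 alone (adjusted p = 0.0904).

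**Figure D5:**
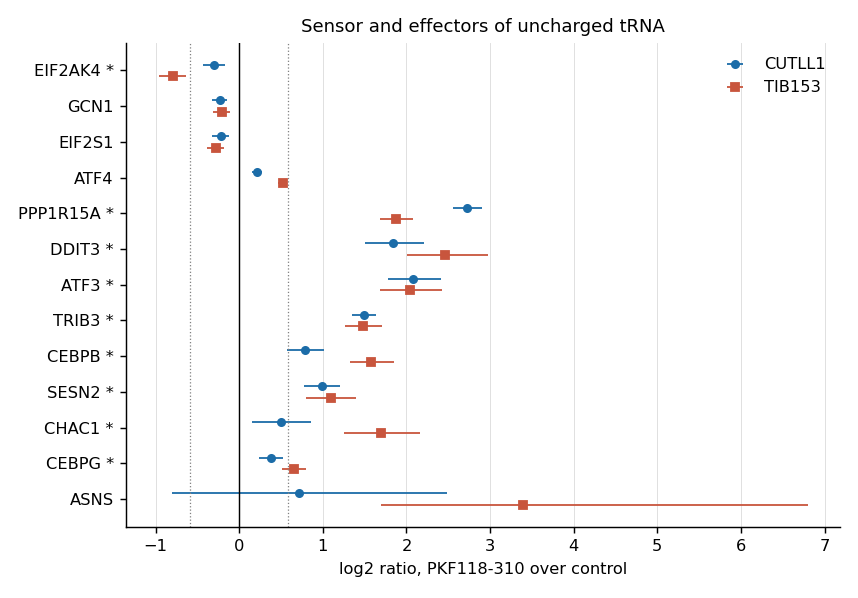
Log2 ratio of PKF118-310 over control (x axis) for 13 genes listed as sensing uncharged tRNA or acting below it, circles for CUTLL1 and squares for TIB153. Bars are 95% counting intervals. Stars mark genes with an adjusted p under 0.05 across both lines and dotted lines mark 1.5-fold. PPP1R15A, DDIT3, ATF3 and TRIB3 lie far right of 0 in both lines, and EIF2AK4 lies left of 0.

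Among mitochondrial partners outside the 36 members, MTFMT, which formylates the initiator methionyl-tRNA, passed as lower. MTFMT had 123 reads in treated against 201 in control CUTLL1, and 102 in treated against 179 in control TIB153 (edgeR log2 change −0.88 ± 0.22 SE, adjusted p = 0.0196), but did not pass with DESeq2 (adjusted p = 0.168) or with lane 2 alone (adjusted p = 0.0618). GATB, a subunit of the amidotransferase that makes mitochondrial glutaminyl-tRNA, did not pass, with log2 ratios of −0.32 in CUTLL1 and −0.48 in TIB153.

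Of the 13 measured genes of tRNA export, editing, selenocysteine and elongation, none passed. TARSL2, another cytosolic threonyl enzyme, had log2 ratios of −0.29 in CUTLL1 and −1.18 in TIB153 with an edgeR adjusted p of 0.0848. AARSD1, which resembles the editing domain of alanyl-tRNA synthetase, had 17 reads each in treated and control CUTLL1, and 44 in treated against 12 in control TIB153, and is uncertain, since 34.2% of its exonic bases belong to another gene on the same strand as well.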

How the data were processed

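RNA from CUTLL1 and TIB153 cells, with PKF118-310 and as controls, was sequenced as poly(A)-enriched stranded libraries. Each lane file deposited by the authors gives raw read counts per gene as whole numbers, without normalization. Per the labels' processing notes, HISAT2, HTSeq, DESeq2 and hg38 were used. Versions and the strand setting were not given in the sources used here, however. Of 11796 genes with at least 80 reads, 99.6% had the coordinates of GENCODE release 29, which gave exonic lengths and overlaps. A gene sharing over 25% of its exonic bases with another on the same strand was called uncertain. The authors' tables of treated against control cells hold their own comparisons and were not used. They also hold 8 per-sample columns, 2 control and 2 treated in each line, which match no label. Their counts are larger than those of a lane and equal neither the lanes nor their sums, and the study likewise names 2 control and 2 treated samples per line. What they are is not known here, so the single library per group rests on the labels.

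The lanes of a library are technical, so they were summed (chi-square over genes with at least 10 reads) and each library was counted once. Totals were 7971771 and 7609427 counts for treated and control CUTLL1 and 8140391 and 7792377 for treated and control TIB153. Genes were filtered with filterByExpr and scaled by TMM in edgeR 4.0.16 (R 4.3.3), which left 13280. Log2 ratios within a line used a pseudocount of 0.5, and their 95% intervals were derived from exact binomial limits on the fraction of reads from treated cells. Intervals of differences between genes or lines were normal approximations from the counts. All cover counting error only, since PCR reads are not independent molecules. Across lines, edgeR's robust quasi-likelihood test was used with cell line as a term and Benjamini-Hochberg adjustment, with DESeq2 1.42.0 as an alternative. With 1 library per group, p-values measure only the spread between these 2 lines and the pooled spread.

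Synthetases past the test across lines, the 8 cytosolic and 6 mitochondrial genes of largest mean ratio, HARS and HARS2 were described in full, and in the other lists up to 3 genes of at least 5 CPM, with ATF4 and EIF2AK4. Some genes of the other lists are not reported here. The members and lists were chosen with earlier results of these data known. Alternatives were other scalings, no filter, single lanes, other fold and p limits, another pseudocount, fits without robust weighting or cell line, and GARS and KARS left out. Code was tested on simulated data.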

Additional observations from a re-analysis of the deposited data

Results flagged for a closer look

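VARS2, the mitochondrial valyl-tRNA synthetase, stood out because its counting intervals lay on opposite sides of no change in the lines. Its log2 ratio of PKF118-310 over control was −0.18 (−0.34 to −0.03) in CUTLL1 and 0.35 (0.20 to 0.50) in TIB153. The difference, CUTLL1 minus TIB153, was −0.53 with an approximate counting interval of −0.75 to −0.32. With 1 library per group the difference between lines was not tested against replicates. No other member of the 36 had intervals on opposite sides. VARS2 shares 22% of its exonic bases with GTF2H4 on the same strand, and the part of that overlap was not tested.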

How the results depend on the processing

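The cytosolic median log2 ratio was −0.05 in CUTLL1 and 0.12 in TIB153 with total counts only and 0.02 in TIB153 with no filter, against −0.10 and 0.06, and in CUTLL1 it was −0.12 with no filter. With a single lane it ranged from −0.09 to −0.06 in CUTLL1. The mitochondrial median ranged from −0.23 to −0.15 in CUTLL1 and from −0.14 to −0.04 in TIB153, and the difference of the medians from 0.09 to 0.15 and from 0.15 to 0.16. Counts of calls depended on thresholds, lanes and model. In CUTLL1, the 1 higher call became 3 with total counts only, 2 with either lane alone and 5 with the counting interval alone, and the 2 lower calls became 4 with lane 1 alone, 0 at 2-fold and 18 with the interval alone. In TIB153, the 4 higher and 4 lower calls became 0 and 0 at 2-fold and 11 and 13 with the interval alone. With a single lane the lower calls ranged from 3 to 4 in each line and the higher calls stayed at 4 in TIB153.

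Across lines, the 3 cytosolic genes higher became 0 with the cell line left out of the model (no replicate block), as did the 5 cytosolic and 2 mitochondrial genes lower. None of the 13280 genes tested passed in that fit. The lane numbers mark technical lanes and pair no samples, so no other block could be fitted. The 5 cytosolic genes lower became 2 with DESeq2's Wald test, 2 with total counts only and 1 at an adjusted p under 0.01, and the 2 mitochondrial genes lower became 1 with DESeq2 and 1 at that limit. Over all genes, 900 lower calls became 249 with DESeq2, 552 with total counts only and 208 at that limit. With a single lane, the cytosolic genes lower ranged from 2 to 4, the cytosolic genes higher stayed at 3, the mitochondrial genes lower stayed at 2 and the mitochondrial genes higher ranged from 0 to 1. HARS2 alone made the count of mitochondrial genes higher 1 in place of 0 with lane 2 alone (log2 change 0.69, adjusted p = 0.0313), and also with no filter (0.50, adjusted p = 0.0403). LARS and CARS2 also passed with no filter.

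Of the members that did not pass, 5 with values near 0 changed sign in 8 refits: HARS (−0.01) and QARS (−0.03) with no filter, QARS (−0.02) and SARS2 (0.06) with lane 1 alone, NARS (0.02), SARS2 (0.03) and WARS2 (0.01) with total counts only, and WARS2 (0.03) with lane 2 alone. SARS2, PARS2 and WARS2 had 36 to 111 reads per library, which limits their precision most. With the other lane alone the values stood at −0.07 for SARS2 (lane 2) and −0.09 for WARS2 (lane 1).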
